A study of Mus musculus with 18 samples.

Results

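The replication-dependent histone genes encode the bulk of the H1 linker histone and of the H2A, H2B, H3 and H4 core histones that package newly made DNA. Members were all genes whose symbol begins with a canonical histone prefix (H1f1 to H1f6, H2ac, H2bc, H3c, H4c, H4f or the older Hist1h to Hist4h names) and that have a probe set with exactly 1 gene symbol on the array. This gave 28 of 19938 genes: 5 of H1, 4 of H2A, 9 of H2B, 3 of H3 and 7 of H4. A further 36 histone genes of the same naming were measured only on probe sets shared by several symbols, and 18 of the 28 members were also named on such shared probe sets.

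Arrays of the type Affymetrix Mouse Gene 1.0 ST were used on RNA of MLg 2908 cells, a lung fibroblast line from newborn ddY mice of wild-type genotype, plated on a 3D collagen gel. The cells that had entered the gel were separated from those that had stayed on top. There were 5 invading and 5 non-invading samples at 96 hours and 4 invading and 4 non-invading samples at 72 hours. The labelled treatment of every sample also names TGFB1, whereas the titles name no growth factor and the figure legends of the study describe untreated cells, so whether TGFB1 was present is not settled, and the labels give no difference in it between the groups. All samples came from 1 cell line, and the labels call the repeats biological replicates without saying whether they were separate platings.

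Signals are log2 values. Of 11 fibroblast markers, 10 had mean signals of 11.83 to 13.52 and Thy1 had 6.07, below the log2 value of a linear signal of 100, which is 6.64. The 4 endothelial markers were at 5.00 to 5.66, the epithelial markers at 5.21 to 7.57 and the immune markers at 4.69 to 7.18. Samples of 1 group correlated at r = 0.991 to 0.996 over all probe sets. The median signal of the arrays was 6.46 to 6.54 in invading and 6.58 to 6.64 in non-invading samples at 96 hours, and 6.50 to 6.53 in invading and 6.54 to 6.65 in non-invading samples at 72 hours.

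Replication-dependent histone mRNAs are made mainly in S phase, when DNA is copied. They lack introns and a poly(A) tail and end instead in a stem-loop that is bound by the stem-loop binding protein (Slbp) and cut with the help of the U7 small nuclear ribonucleoprotein. When DNA synthesis stops, these mRNAs are degraded quickly. The labelling kit used here primes along transcripts and does not depend on a poly(A) tail. In bulk RNA, fewer cells that express a histone gene and less of its RNA per cell cannot be told apart.

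The genes lie in clusters. On GRCm38 coordinates of RefSeq, 23 members are on chromosome 13, 4 on chromosome 3, and H4f16 stands alone on chromosome 6. The annotated gene spans 375 to 903 bases in 25 members, against 2667 bases in H2bc21, 8282 in H2bc4 and 14079 in H2bc22. Promoter entries of RefSeq (GRCm38.p6, 250 bases before to 50 after the start) were found for 24 members, and none was matched for H2bc4, H2bc21, H3c7 and H4c14. The upstream stretches below are shown because their genes are among those of their class with the largest differences described later, or, for H4c9, because it is the H4 gene that passed no test. They are the 130 bases that end just before the start, 5′ to 3′ on the strand of the gene. Capitals mark GGTCCG in H4 genes, the core of a site of H4 promoters bound by Hinfp, ATTTGCAT in H2B genes, the octamer bound by Pou2f1, and AAACACA in H1f5, the H1 box.
H4c6 (chr13:23551669-23551798, minus strand): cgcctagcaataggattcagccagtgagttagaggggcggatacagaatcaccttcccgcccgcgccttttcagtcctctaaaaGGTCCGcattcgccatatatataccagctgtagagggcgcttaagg
H4c3 (chr13:23698459-23698588, minus strand): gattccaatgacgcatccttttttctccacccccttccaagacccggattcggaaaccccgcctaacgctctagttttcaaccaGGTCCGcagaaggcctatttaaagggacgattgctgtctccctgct
H4f16 (chr6:136804432-136804561, minus strand): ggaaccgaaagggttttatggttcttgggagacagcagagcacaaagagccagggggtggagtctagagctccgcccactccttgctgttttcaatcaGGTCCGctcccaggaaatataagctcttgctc
H4c9 (chr13:22041363-22041492, minus strand): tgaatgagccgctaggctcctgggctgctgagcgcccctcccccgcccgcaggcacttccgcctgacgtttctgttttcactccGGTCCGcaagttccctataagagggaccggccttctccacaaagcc
H2bc14 (chr13:21721914-21722043, plus strand): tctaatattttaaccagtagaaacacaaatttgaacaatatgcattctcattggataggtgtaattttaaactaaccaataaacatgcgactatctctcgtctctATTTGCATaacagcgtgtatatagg
H2bc18 (chr3:96269570-96269699, plus strand): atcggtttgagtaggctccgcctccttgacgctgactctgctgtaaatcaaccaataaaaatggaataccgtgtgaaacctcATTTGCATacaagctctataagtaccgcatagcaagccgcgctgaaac
H2bc3 (chr13:23746604-23746733, plus strand): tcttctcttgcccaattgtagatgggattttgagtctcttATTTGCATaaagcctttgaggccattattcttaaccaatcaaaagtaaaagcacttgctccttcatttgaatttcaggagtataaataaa
H1f5 (chr13:21780626-21780755, minus strand): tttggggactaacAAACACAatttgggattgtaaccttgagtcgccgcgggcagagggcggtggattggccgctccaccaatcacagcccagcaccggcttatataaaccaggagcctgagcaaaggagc

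Searched on both strands of the whole entries, GGTCCG was in all 6 H4 promoters, including that of H4c9, and in H2bc9, against 8.25% of 32851 RefSeq promoters. It began 46 bases upstream of the start in H4c6, H4c3 and H4c9 and 32 bases upstream in H4f16. ATTTGCAT was in 5 of 7 H2B promoters (H2bc1, H2bc3, H2bc8, H2bc14 and H2bc18) and in 3 of 4 H2A promoters, against 1.74% of all. H2bc9 lacked it and is not shown. Its log2 ratio between the fractions at 96 hours was 0.69, against 0.62 for H2bc3. Over time in the non-invading fraction it was -0.61, against -0.83 for H2bc3. AAACACA was in 4 of 5 H1 promoters, all but H1f1, and also in H2ac1, H2ac4, H2bc1 and H2bc14, against 7.18% of all. H1f1 is not shown. Its log2 ratio between the fractions at 96 hours was 0.44, against 0.48 for H1f5. Over time in the non-invading fraction it was -0.64, against -0.41 for H1f5. The CCAAT box was in 20 of the 24 and TATAAA in 15 of the 24, against 37.4% and 13.6% of all promoters. A match is a description of these letters, and no binding was measured.

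At 96 hours the histone genes were higher in the invading than in the non-invading fraction. With limma and an adjusted p under 0.10 over all probe sets, 19 of the 28 members (67.9%) passed as higher and 0 as lower, against 16.7% and 14.7% of all 19938 genes. The median log2 ratio of the members was 0.35, a ratio of 1.28, against 0.02 over all genes. In 14 members every invading sample was above every non-invading one, and how many of all genes did so was not counted. By class, 6 of 7 H4, 7 of 9 H2B, 4 of 4 H2A, 2 of 5 H1 and 0 of 3 H3 genes passed, and 1 H3 gene, H3c4, had an unadjusted p under 0.05. Near-identical copies may share signal even on probe sets with 1 symbol, so single genes of a class are less certain than the class.

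The H4 genes encode the core histone that pairs with H3. H4c6 measured 10.63, 10.63, 10.76, 10.79 and 10.88 in the invading samples of 96 hours, against 9.52, 9.83, 9.63, 10.17 and 9.60 in the non-invading ones. All 5 invading values lay above the highest non-invading value, that of replicate 4, and the log2 ratio was 0.99 ± 0.11 (SE), a ratio of 1.99 (limma adjusted p = 0.00018). H4c3 followed at 8.15, 8.10, 8.25, 8.17 and 8.44 in invading samples, against 7.31, 7.06, 7.34, 7.74 and 7.22 in non-invading samples. These groups did not overlap either, with a log2 ratio of 0.89 ± 0.11 (adjusted p = 0.0003, limma).

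H4f16, the H4 gene outside the clusters, has a human counterpart that can be polyadenylated. It measured 10.16, 10.26, 10.36, 10.22 and 10.32 in invading samples, against 9.59, 9.79, 9.52, 9.82 and 9.53 in non-invading samples, again without overlap (log2 ratio 0.61 ± 0.07, limma adjusted p = 0.00021). H4c8 was higher by 0.54 and H4c14 by 0.45 on the log2 scale, both without overlap. H4c4 rose least among the H4 genes that passed, with a log2 ratio of 0.29 ± 0.07 (limma adjusted p = 0.0089), and its groups overlapped through non-invading replicate 4. H4c9, with the same GGTCCG element, had a log2 ratio of 0.17 ± 0.12 and did not pass.

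H2B pairs with H2A in the nucleosome. H2bc14 measured 11.42, 11.61, 11.80, 11.70 and 11.73 in invading samples, against 10.99, 10.89, 10.89, 11.23 and 10.61 in non-invading samples. Every invading value was the higher, and the log2 ratio was 0.73 ± 0.11 (limma adjusted p = 0.0007). H2bc18, in the chromosome 3 cluster, measured 8.22, 8.21, 8.46, 8.33 and 8.39 in invading samples, against 7.50, 7.48, 7.65, 8.00 and 7.44 in non-invading samples. It too was without overlap (0.71 ± 0.10, limma adjusted p = 0.00067), and so was H2bc9 (0.69 ± 0.09, adjusted p = 0.0003, means 10.75 in invading and 10.06 in non-invading samples). H2bc3 rose by 0.62, H2bc8 by 0.37 and H2bc22 by 0.34, while H2bc4 (0.16) and H2bc21 (-0.03) did not pass.

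All 4 H2A genes passed as higher. H2ac4 had a log2 ratio of 0.56, H2ac8 of 0.30 and H2ac15 of 0.27 (limma adjusted p = 0.0028 for H2ac15). H2ac8 averaged 4.73 ± 0.16 in invading and 4.43 ± 0.07 in non-invading samples (SD, n = 5 each), below a linear signal of 100. Of the linker histones, which bind DNA between nucleosomes, H1f5 measured 10.71, 11.02, 10.95, 10.99 and 10.93 in invading samples, against 10.29, 10.40, 10.49, 10.86 and 10.16 in non-invading samples. The groups overlapped through non-invading replicate 4, and the log2 ratio of H1f5 was 0.48 ± 0.12 (limma adjusted p = 0.011). H1f1 passed at 0.44 but not without non-invading replicate 5, and H1f2 (0.18), H1f3 (-0.10) and H1f6 (0.03) did not.

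Of the members named for the testis, where variant histones are made in male germ cells, 2 passed at 96 hours. H2bc1 had a log2 ratio of 0.57 ± 0.10 without overlap (limma adjusted p = 0.0013, means 7.54 in invading and 6.97 in non-invading samples). H2ac1 had 0.23 ± 0.08 (limma adjusted p = 0.045), and it no longer passed without invading replicate 3 or non-invading replicate 5. H1f6 averaged 5.38 in invading and 5.35 in non-invading samples and did not pass.

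Of the 21 members with a mean linear signal above 100, 17 passed at 96 hours, and of the 7 below it 2 did. No further member exceeded 100 in any single sample. The mean over the 21 was 9.38, 9.48, 9.59, 9.53 and 9.58 in invading samples, against 8.97, 9.02, 8.99, 9.27 and 8.92 in non-invading samples, so these samples too were fully separated. With the arrays each centred on the median, the median log2 ratio of all genes moved to 0.14 and that of the members to 0.47, and H1f2, H1f6, H3c4 and H4c9 passed as well.

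**Figure D1:**
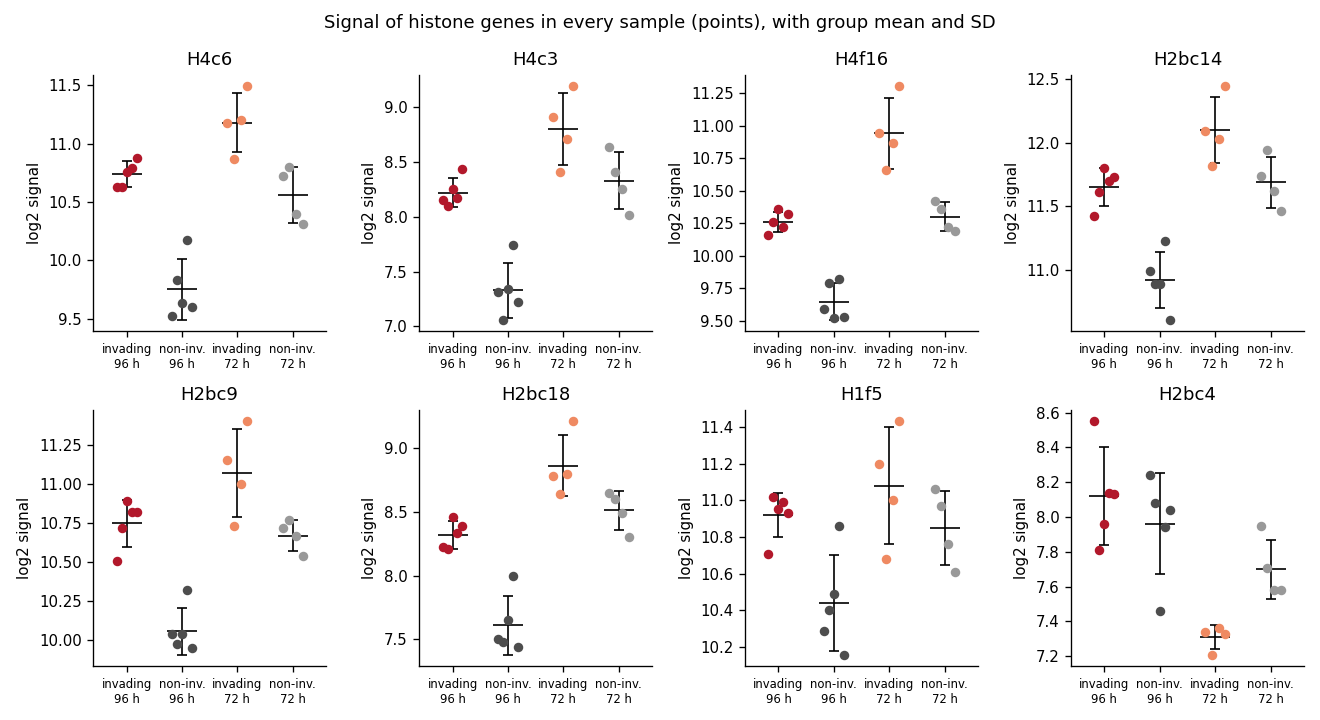
Log2 signal (y axis) of 8 histone genes in every sample by group (x axis), with invading and non-invading samples of 96 hours and then of 72 hours. Points are samples, bars the group mean and SD (n = 5 each at 96 hours, n = 4 each at 72 hours). H4c6, H4c3, H4f16, H2bc14, H2bc9 and H2bc18 are separated between the fractions at 96 hours, and H2bc4 is lowest in the invading samples of 72 hours.

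At 72 hours fewer members differed. In the invading fraction 8 of 28 passed as higher and 1, H2bc4, as lower, against 13% and 13.5% of all genes. The median log2 ratio was 0.19, against 0.04 over all genes. An unadjusted p under 0.05 (limma) was found in 11 of the 28 members and in 6426 of all 19938 genes. The median was 0.10 without invading replicate 4 and 0.28 without non-invading replicate 1. The 8 were 5 H4 genes (H4c3, H4c6, H4c8, H4c14 and H4f16) and 3 H2B genes (H2bc9, H2bc14 and H2bc18), and each of them was also higher at 96 hours. How many of all genes were higher at both times was not counted. No H1, H2A or H3 gene passed, and in these classes none had an unadjusted p under 0.05. The count of 9 rested on single samples: without invading replicate 1 or 4, or non-invading replicate 3 or 4, it was 4, namely H4c6, H4c8, H4f16 and H2bc4. H2bc14, H2bc18 and H4c3 also lost their calls without invading replicate 3, H2bc14 without non-invading replicate 1, and H2bc18 and H4c3 without non-invading replicate 2.

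H4f16 measured 10.94, 10.66, 10.87 and 11.30 in the invading samples of 72 hours, against 10.42, 10.36, 10.22 and 10.19 in the non-invading ones. The groups did not overlap, and the log2 ratio of 0.64 ± 0.13 (limma adjusted p = 0.0088) was close to the 0.61 of 96 hours. H4c6 measured 11.18, 10.87, 11.20 and 11.49 in invading samples, against 10.72, 10.80, 10.40 and 10.31 in non-invading samples. It was also without overlap, at 0.63 ± 0.15 (limma adjusted p = 0.019), and H4c8 was at 0.59 ± 0.12 (adjusted p = 0.01). The other 5 overlapped between the fractions, with log2 ratios of 0.48 for H4c3, 0.41 for H2bc14, 0.40 for H2bc9, 0.37 for H4c14 and 0.35 for H2bc18. Replicate 4 of the invading samples was the highest in each of the 8.

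H2bc4 ran the other way. This H2B gene is annotated with a span of 8282 bases, and its human counterpart can yield polyadenylated mRNA outside S phase. It measured 7.34, 7.21, 7.36 and 7.33 in invading samples of 72 hours, against 7.95, 7.71, 7.58 and 7.58 in non-invading samples. The groups did not overlap, and the log2 ratio was -0.39 ± 0.09 (limma adjusted p = 0.017). At 96 hours its invading samples measured 8.55, 7.81, 7.96, 8.14 and 8.13 and its non-invading samples 8.24, 8.08, 7.46, 7.94 and 8.04, with wide overlap. Within the invading fraction it was higher at 96 than at 72 hours by a log2 ratio of 0.81 ± 0.15 (limma adjusted p = 0.00054), and it was the one member to pass as higher over time in either fraction. Of the 4 members whose human counterparts can be polyadenylated (H1f2, H2bc4, H2bc21 and H4f16), 1 was higher and 0 lower at 96 hours, against 16.7% and 14.7% of all genes. At 72 hours 1 was higher and 1 lower, against 13% and 13.5%. Over time 1 rose and 1 fell in the invading fraction, against 18.2% and 16.7%, and 0 rose and 1 fell in the non-invading fraction, against 15.4% and 12.2%.

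**Figure D2:**
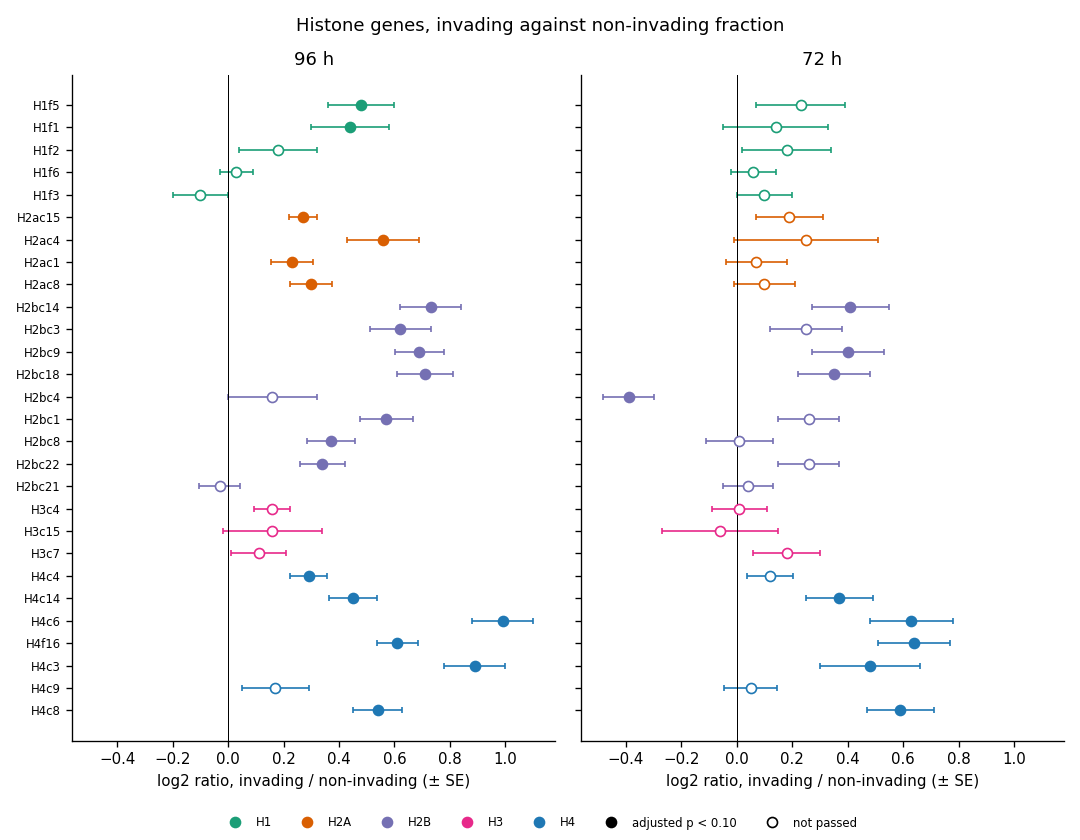
Log2 ratio of invading over non-invading samples (x axis, ± SE) for the 28 histone genes (y axis, by class), at 96 hours on the left and 72 hours on the right. Filled points passed the test at an adjusted p under 0.10. At 96 hours 19 points are filled, all to the right of 0, and at 72 hours 9 are filled, of which H2bc4 is to the left.

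The difference between the fraction ratios of the times was tested in 1 fit over all 18 samples. The difference was positive in 22 of 28 members, of which H1f2 was at 0.00, with a median over the 28 of 0.19 on the log2 scale, against -0.01 over all genes. Without invading replicate 2 of 72 hours this median was 0.10. No member passed (0 of 28, limma), as was the case for nearly all genes, of which 0.015% passed as higher and 0% as lower. At an unadjusted p under 0.05 (limma) there were 2 of 28 members, against 1623 of all 19938 genes. The 2 were H2bc4 (0.56 ± 0.21) and H2bc8 (0.36 ± 0.15). The counts of 19 and 9 are therefore not shown to differ in the underlying ratios.

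Over time part of the histone genes fell in each fraction. In the non-invading fraction 16 of 28 members were lower at 96 than at 72 hours and 0 were higher, against 12.2% and 15.4% of all genes. Their median log2 ratio was -0.31, against -0.02 over all genes. Between the times 12 members did not overlap, a count that was not taken over all genes. In the invading fraction 13 members were lower and 1 was higher, against 16.7% and 18.2% of all genes, with a median of -0.17 against -0.03. In both fractions 12 members were lower, and how many of all genes were so was not counted. The invading count rested in part on replicate 4 of the 72-hour samples, without which 8 members were lower and 1 higher and the median was -0.10. Without replicate 2 of the 72-hour invading samples the median was -0.26.

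H4c3 had the lowest ratio in the non-invading fraction, with 7.31, 7.06, 7.34, 7.74 and 7.22 at 96 hours, against 8.64, 8.41, 8.25 and 8.02 at 72 hours. The times did not overlap, and the log2 ratio was -0.99 ± 0.15, a ratio of 0.502 (limma adjusted p = 0.00024). H2bc18 was at 7.50, 7.48, 7.65, 8.00 and 7.44 at 96 hours, against 8.65, 8.60, 8.49 and 8.30 at 72 hours, also without overlap (-0.90 ± 0.12, limma adjusted p = 8.6e-05). H2bc3 (-0.83), H4c6 (-0.81) and H2bc14 (-0.77) followed. H2ac15, at 12.00 ± 0.06 at 96 hours (SD, n = 5) and 12.29 ± 0.11 at 72 hours (SD, n = 4), fell by 0.29 on the log2 scale, and H4c4 fell by 0.35.

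In the invading fraction the lowest ratio was that of H4f16, with 10.16, 10.26, 10.36, 10.22 and 10.32 at 96 hours, against 10.94, 10.66, 10.87 and 11.30 at 72 hours. The times did not overlap (-0.68 ± 0.10, limma adjusted p = 0.00012). H4c14 had a log2 ratio of -0.58 ± 0.11 (limma adjusted p = 0.00073) and H4c3 one of -0.58 ± 0.15 (limma adjusted p = 0.0096). H2bc18 was at -0.54, H2bc3 at -0.45, and H4c6 and H2bc14 both at -0.44. Of the other classes, H2ac15, H1f6 and H3c7 passed as lower, at -0.21, -0.23 and -0.29. The call of H2ac15 was lost when any 1 sample was left out, except invading replicate 2 of 72 hours, and that of H4c4 (-0.18) without invading replicate 1, 3 or 4 of 72 hours, invading replicate 1, 3, 4 or 5 of 96 hours or non-invading replicate 2 of 96 hours. The call of H3c7 was lost without invading replicate 1, 2 or 4 of 72 hours or 1, 2 or 3 of 96 hours, that of H2bc9 (-0.32) without invading replicate 1 or 4 of 72 hours or 1 of 96 hours, and that of H4c6 without invading replicate 4 of 72 hours.

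Taking the 21 members above a linear signal of 100 as a mean, the groups stood at 9.52 ± 0.09 in invading and 9.03 ± 0.14 in non-invading samples at 96 hours (SD, n = 5 each), and at 9.74 ± 0.21 in invading and 9.49 ± 0.15 in non-invading samples at 72 hours (SD, n = 4 each). The non-invading samples of 96 hours, at 8.92 to 9.27, lay below all others. The remaining groups overlapped, and the highest of the 18 samples was invading replicate 4 of 72 hours at 9.99. Of the 28 members, 15 were both higher among invading cells at 96 hours and lower at 96 than at 72 hours in the non-invading fraction. These 2 comparisons share the non-invading samples of 96 hours, and how many of all genes passed both was not counted.

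**Figure D3:**
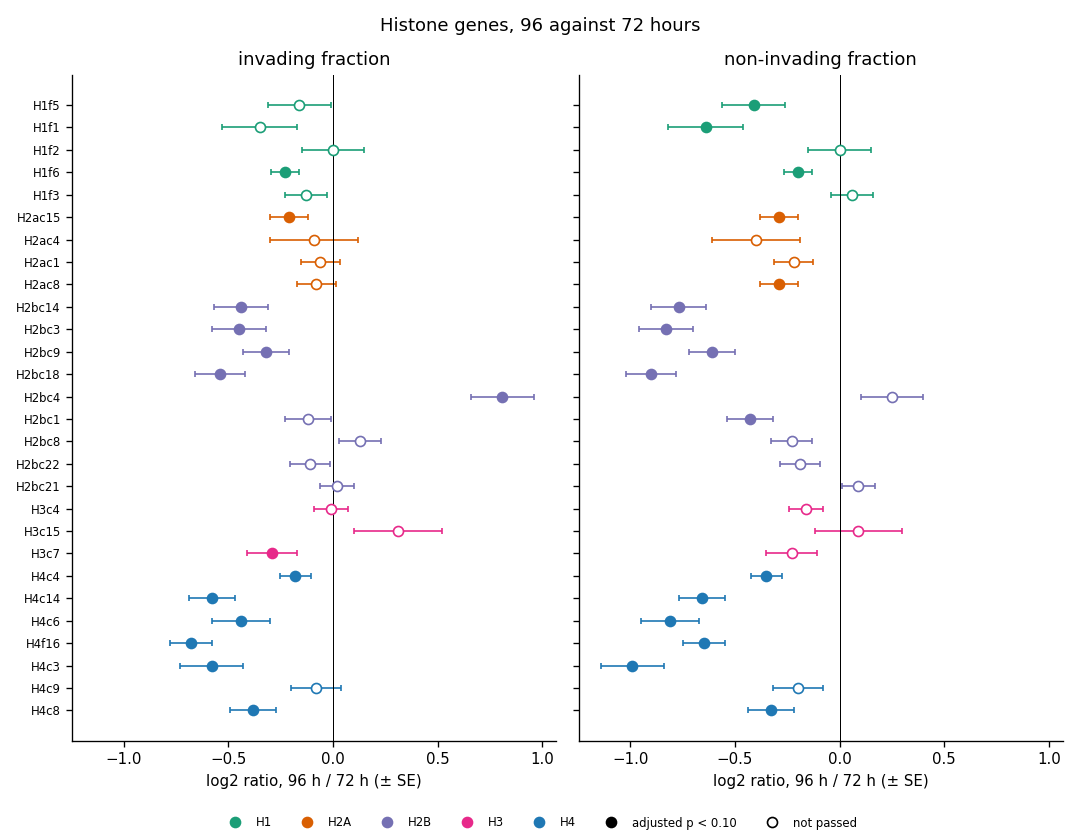
Log2 ratio of 96 over 72 hours (x axis, ± SE) for the 28 histone genes (y axis, by class) in the invading fraction on the left and the non-invading fraction on the right. Filled points passed at an adjusted p under 0.10. On the left 13 filled points are below 0 and H2bc4 is above it, and on the right all 16 filled points are below 0.

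Most members varied together across samples. Each member was set against the mean of the other members above a linear signal of 100, over the 18 samples, which share their normalization and cover 4 groups. For 18 of 28 members r was 0.86 to 0.98, as for H4c6 (0.98), H2bc14 (0.98) and H2ac15 (0.95). With the group means removed, r was 0.64 (H4c8) to 0.93 (H1f5) in these 18, with 0.92 for H4c6 and 0.90 for H2bc14. Outside them it was lower, such as -0.05 for H1f6 and -0.01 for H2bc4. How many of all genes reach such values was not counted. For 8 members r was 0.11 to 0.67, among them H1f2 (0.24) and H4c9 (0.56). H2bc4 (-0.45) and H2bc21 (-0.18) were negative, and both have long annotated spans, as has H2bc22, whose r was 0.87. These are descriptions over samples that fall into groups.

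The shared probe sets gave values for copies that the array does not separate. All 7 of H2B, each naming 14 or 15 genes, were higher among invading cells at 96 hours (log2 ratios 0.41 to 0.59) and lower at 96 than at 72 hours in the non-invading fraction (-0.49 to -0.36). All 6 of H4 were likewise higher (0.35 to 0.43) and lower (-0.69 to -0.36). Each of the 10 of H3 named 12 genes. Probe sets of 1 class share their genes and are not independent. At 96 hours their ratios of the fractions were 0.11 to 0.14, of which 2 passed, and over time in the non-invading fraction all 10 were lower, at -0.26 to -0.22. Of the other 3 shared probe sets, the 2 of H2A did not pass between the fractions at 96 hours (limma, lowest adjusted p = 0.12), and 1 that names an H2B gene with H1f4 was higher by 0.26. At 72 hours only 2 of the 7 of H2B and 1 of the 6 of H4 were higher, and no other shared probe set passed. Over time in the invading fraction 5 of the 6 of H4 were lower, and no shared probe set of another class passed. Of all genes with a probe set of 1 symbol, 16.7% were higher at 96 hours and 13% at 72 hours. Over time 12.2% of them were lower in the non-invading and 16.7% in the invading fraction. The shares over all probe sets were not counted.

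Of 20 genes that make and process histone mRNA, 3 were higher and 4 lower among invading cells at 96 hours, against 16.7% and 14.7% of all genes, and 1 was higher and 3 lower at 72 hours, against 13% and 13.5%. Over time 9 rose and 0 fell in the invading fraction, against 18.2% and 16.7% of all genes, and 6 rose and 0 fell in the non-invading fraction, against 15.4% and 12.2% (limma). Their medians were 0.01 at 96 hours, -0.05 at 72 hours, 0.10 over time in the invading and 0.05 in the non-invading fraction, against 0.02, 0.04, -0.03 and -0.02 over all genes. Npat, the coactivator of histone genes in S phase, was lower among invading cells, both at 96 hours (-0.43 ± 0.09, limma adjusted p = 0.0032) and at 72 hours (-0.53 ± 0.11, adjusted p = 0.0089). Casp8ap2, a factor of histone pre-mRNA cleavage, was higher at 96 than at 72 hours by 0.69 in the invading and 0.61 in the non-invading fraction. Slbp, which binds the stem-loop, passed only in the invading fraction over time, at 0.25. Hinfp, which binds the H4 promoter element, was lower in the invading fraction at 96 hours by a log2 ratio of -0.21, while H4 genes were higher.

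Of 33 S phase and replication genes, 8 were higher and 3 lower among invading cells at 96 hours, against 1 higher and 13 lower at 72 hours, with medians of 0.14 and -0.08. Over all genes 16.7% were higher and 14.7% lower at 96 hours and 13% and 13.5% at 72 hours, with medians of 0.02 and 0.04. Cdt1, which loads the replicative helicase before S phase, was higher at 96 hours by 0.79 ± 0.08 (limma adjusted p = 0.00011) and at 72 hours by 0.42, and Mcm3, Mcm4 and Mcm7, subunits of that helicase, were higher at 96 hours by 0.50, 0.37 and 0.40. Ccna2, the cyclin of S and G2 phase, was lower at 72 hours by a log2 ratio of -0.77, and Rfc4, of the clamp loader, by one of -0.52. Over time in the invading fraction 13 rose and 1 fell, a median of 0.13 against -0.03 over all genes, of which 18.2% rose and 16.7% fell, with Rfc4 at 1.01 and the primase subunit Prim1 at 0.81, and Tk1, thymidine kinase, fell by 0.53. In the non-invading fraction 5 rose and 7 fell, a median of -0.14 against -0.02 over all genes, of which 15.4% rose and 12.2% fell, and Tk1 was among those that fell (-0.75).

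Of 19 mitotic genes, 1 was higher and 3 lower among invading cells at 96 hours, against 16.7% and 14.7% of all genes. At 72 hours 0 were higher and 11 lower, against 13% and 13.5% of all genes, and Bub1, a spindle checkpoint kinase, had a log2 ratio of -1.07 ± 0.09 (limma adjusted p = 0.00031) and Ncapg, of condensin, one of -0.81. Over time 11 of the 19 rose in the invading fraction, with Ncapg at 0.96, and 0 fell, against 18.2% and 16.7% of all genes, while in the non-invading fraction 1 rose and 4 fell, against 15.4% and 12.2%. The median of the mitotic genes was 0.00 at 96 hours and -0.41 at 72 hours, and over time 0.28 in the invading and -0.14 in the non-invading fraction, against 0.02, 0.04, -0.03 and -0.02 over all genes. In the invading fraction, then, 13 histone genes were lower and 11 mitotic genes higher at 96 than at 72 hours. A further list of 16 genes held D cyclins, inhibitors of cyclin-dependent kinases, Cdk4, Cdk6, Rb1, Rbl1, Rbl2, Ccng1, Btg2 and Gadd45a. Of these, 6 were higher and 5 lower among invading cells at 96 hours, against 3 higher and 5 lower at 72 hours. The medians were 0.02 and -0.09. All genes had 16.7% and 14.7% at 96 hours and 13% and 13.5% at 72 hours, with medians of 0.02 and 0.04. Gadd45a, a growth arrest gene, was higher at both, by 0.66 and 0.65, and Rb1, which restrains entry into S phase, was lower at both, at -0.54 and -0.97. Over time 9 of the 16 rose and 0 fell in the invading fraction, with a median of 0.17. In the non-invading fraction 4 rose and 1 fell, with a median of 0.06. The shares and medians of all genes over time are those given above.

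Replacement variants are histones made outside S phase from polyadenylated mRNA. Of 9 measured, 3 were higher and 1 lower among invading cells at 96 hours, against 1 higher and 1 lower at 72 hours, with a median of 0.01 at both. All genes gave 16.7% and 14.7% at 96 hours and 13% and 13.5% at 72 hours, with medians of 0.02 and 0.04. H2ax, which marks DNA breaks and whose mRNA can also end in a stem-loop, was higher at 96 hours by 0.30 ± 0.08 (limma adjusted p = 0.017). Over time H2ax fell by 0.46 in the invading and 0.53 in the non-invading fraction, and the linker variant H1f10 fell by 0.58 in the invading and 0.52 in the non-invading fraction. Macroh2a1, a variant of repressed chromatin, rose over time instead, by 0.68 in the invading and 0.59 in the non-invading fraction, and in all 4 of the variants rose and 2 fell in the invading fraction (all genes 18.2% and 16.7%), and 3 rose and 3 fell in the non-invading fraction (all genes 15.4% and 12.2%).

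Histone chaperones and importers numbered 21, with 5 higher and 2 lower among invading cells at 96 hours, against 4 higher and 6 lower at 72 hours, with medians of 0.07 and -0.09. For all genes the shares were 16.7% and 14.7% at 96 hours and 13% and 13.5% at 72 hours, and the medians 0.02 and 0.04. Chaf1b, of the chromatin assembly factor that follows the replication fork, was higher at 96 hours by 0.52 ± 0.10 (limma adjusted p = 0.0027). Atrx, which deposits H3.3, was lower by log2 ratios of -0.62 at 96 hours and -0.54 at 72 hours. Over time 11 rose and 3 fell in the invading fraction, where 18.2% and 16.7% of all genes did, and 9 rose and 2 fell in the non-invading fraction, where 15.4% and 12.2% did. Nasp, an H3 and H4 chaperone, rose by 0.87 in the invading fraction, Asf1a by 0.75 and Hat1, which acetylates new H4, by 0.63.

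**Figure D4:**
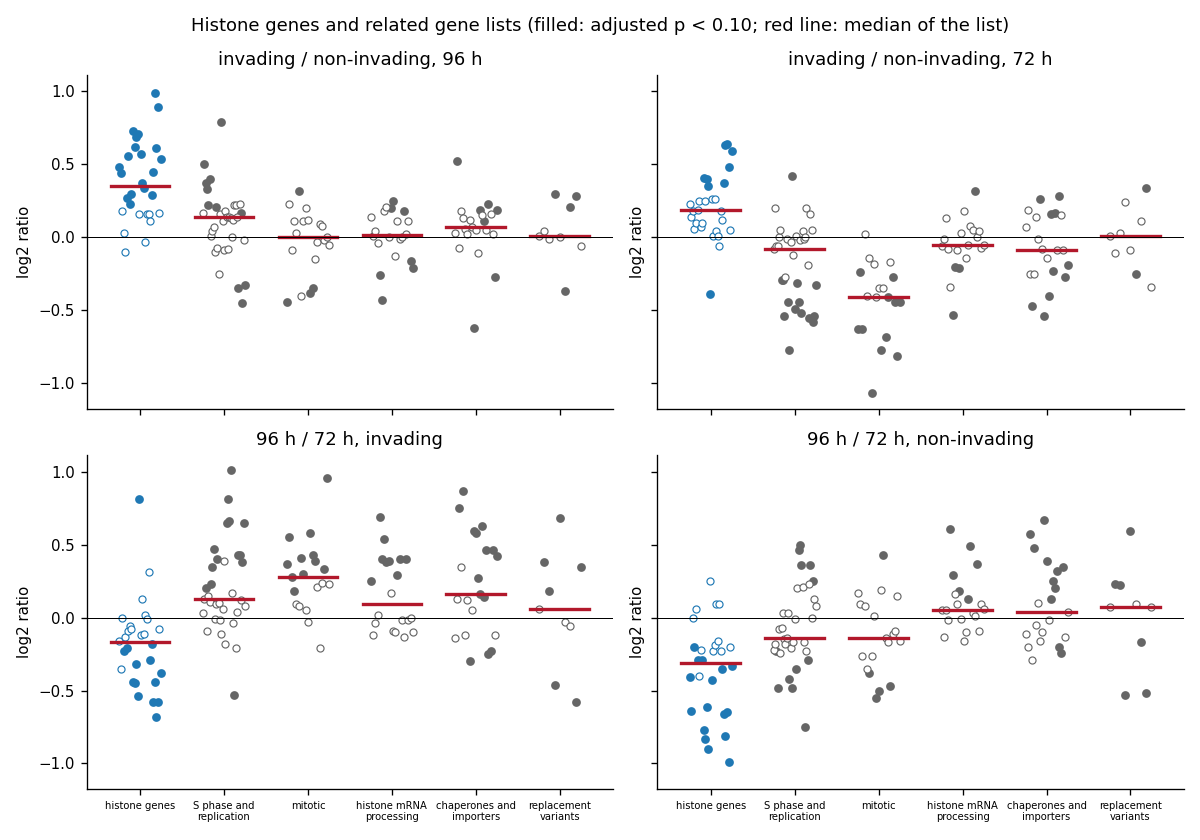
Log2 ratios (y axis) of the 28 histone genes and of 5 related gene lists (x axis) in 4 comparisons, 1 panel each, with 1 point per gene, filled where the adjusted p was under 0.10, and a red line at the median of the list. The histone genes have a median of 0.35 at 96 hours and of -0.31 over time in the non-invading fraction, and the mitotic genes have a median of -0.41 at 72 hours and of 0.28 over time in the invading fraction.

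Across the 18 samples the genes of these lists most like the mean of the 21 members were Cdt1 (r = 0.91), Ipo4, an importer of H3 and H4 (0.89), H2ax (0.88), H1f10 (0.87) and Mcm5 (0.83). Those least like it were Atrx (-0.94), Npat (-0.89), Cdc7, the kinase that fires replication origins (-0.82), Casp8ap2 (-0.81) and Ccnd2, a D cyclin (-0.80). These values describe 18 samples in 4 groups with 1 shared normalization.

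Markers of other cell types changed in part between the fractions and over time. Of 6 epithelial markers 3 were higher among invading cells at 96 hours, against 1 at 72 hours, with Krt8 at 0.32 and 0.53, and of 4 immune markers Cd68, a lysosomal protein, was higher at 96 hours by 0.56, while Ptprc, which marks leukocytes, averaged 5.31 and did not pass. The mean over the epithelial list was 6.06 to 6.12 in invading and 5.82 to 6.04 in non-invading samples at 96 hours, and 6.07 to 6.30 in invading and 5.94 to 6.14 in non-invading samples at 72 hours. That over the immune list was 5.78 to 6.03 in invading and 5.59 to 5.78 in non-invading samples at 96 hours, and 5.89 to 6.05 in invading and 5.91 to 5.95 in non-invading samples at 72 hours. None of 4 endothelial markers passed between the fractions by limma. Of 11 fibroblast markers 4 were lower in the invading fraction at each time, among them Col1a1 (-0.24 and -0.25) and Col3a1 (-0.35 and -0.34). At 72 hours 1 was higher and at 96 hours 0 were. From 72 to 96 hours 2 rose and 1 fell in the invading fraction, and 0 rose and 1 fell in the non-invading fraction. The shares of all genes were 16.7% higher and 14.7% lower at 96 hours and 13% and 13.5% at 72 hours. For the times they were 18.2% and 16.7% in the invading and 15.4% and 12.2% in the non-invading fraction. Over time in the non-invading fraction 2 of 4 immune markers, Cd68 (-0.53) and Adgre1 (-0.18), were lower at 96 than at 72 hours, as were 1 epithelial marker, Krt18 (-0.29), and 1 endothelial marker, Pecam1 (-0.14), in the invading fraction. Their part in the histone values was not tested.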

How the data were processed

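The log2 signals are the values the authors deposited: background corrected, normalized between arrays and summarized per probe set with RMA in Affymetrix Expression Console (version 1.2, from the submitters' processing notes), so that a general shift between arrays is largely removed before any comparison. They cover 35556 probe sets in 18 samples, and 0 columns were left unmapped. Symbols came from the platform annotation, names and coordinates from RefSeq (GRCm38). For genes with several probe sets of 1 symbol the brightest was used, and every member had 1 such probe set. Depth is not defined for arrays, and their number limits the precision.

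R 4.3.3 and limma 3.58.1 were used for the fractions in 1 fit per time, and for the times and the difference of the fraction ratios in 1 fit over all 18 samples, without covariates, with Benjamini-Hochberg adjustment over all probe sets and a threshold of 0.10. Each p-value sets a difference between groups against the spread within groups of these samples, which the labels do not call separate platings. The fits were tested on simulated data. No set test was run: lists are given as counts and medians, beside the shares and medians of all genes. Alternatives were another normalization, a filter, variance settings, probe sets, thresholds, a replicate block and leaving out each sample. The replicate numbers were not taken as pairs, since the labels do not say that they mark shared platings.

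Named members are, in each comparison, those among the calls with the 5 highest and the 5 lowest ratios, of which the text gives some, the highest signal of each class, the members named for the testis, and up to 4 genes per list. Others, such as H4c9 and H2bc21, were named after their values were seen. The members, lists and rules were chosen with earlier results of these data known. Promoter letters come from RefSeq (GRCm38.p6).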

Additional observations from a re-analysis of the deposited data

Results flagged for a closer look

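In 7 of 112 groups of samples of a member, 1 sample stood apart from the rest of its group by Dixon's criterion, which chance alone reaches in about 1 of 20 groups. At 96 hours invading replicate 1 was the lowest of its group in H1f1 (9.29, next value 9.53), H2ac1 (8.19, next 8.40) and H4c14 (11.73, next 11.96). Non-invading replicate 4 of 96 hours was the highest in H2bc9 (10.32, next 10.04) and H4c4 (13.34, next 13.07). At 72 hours non-invading replicate 4 was the lowest in H2ac1 (8.24, next 8.41) and non-invading replicate 1 the highest in H2ac8 (4.92, next 4.66).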

How the results depend on the processing

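No call of a member changed direction under any alternative, and the medians of the members kept their sign. Leaving out 1 sample, the medians ranged from 0.33 to 0.39 at 96 hours, 0.10 to 0.28 at 72 hours, -0.26 to -0.10 over time in the invading and -0.35 to -0.26 in the non-invading fraction, and 0.10 to 0.24 for the difference. At 96 hours, where 19 members differed between the fractions, 7 also had a ratio above 1.5, and leaving out 1 sample gave 18 to 20. At 72 hours the count of 9 fell to 4 at an adjusted p under 0.05, to 4 with the replicate number as a block, to 3 with a ratio above 1.5, and ranged from 4 to 10 without 1 sample. For 96 against 72 hours in the invading fraction, 14 became 2 with a ratio above 1.5, and 9 to 14 without 1 sample (9 without invading replicate 4 of 72 hours). In the non-invading fraction 16 became 9 with a ratio above 1.5, and 13 to 19 without 1 sample. Counted over all 54 probe sets that name a member, 35 passed at 96 hours and 12 at 72 hours, against 19 and 9 of the 28 members. Over time 19 of the 54 passed in the invading and 40 in the non-invading fraction, against 14 and 16 of the 28. Shares of all genes were counted only in the main fits at an adjusted p under 0.10. They were not counted under these alternatives or over all probe sets, so these counts have no background beside them.

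Invading and non-invading samples of the same replicate number were also correlated over all probe sets after the group mean of each probe set was removed. These deviations correlated at 0.049 to 0.17 at 96 hours, where 4 of 5 matched best with their own number. At 72 hours they correlated at -0.075 to 0.087, and 1 of 4 did. With the replicate block the counts were 19 at 96 hours and, over time, 12 and 17 in the invading and non-invading fractions, and 0 for the difference. The probe sets of a gene were not averaged, and every member had 1 with a single symbol. Of 3073 values of single members under the alternatives, 86 lost and 43 gained a call. The cause of these changes was not tested. Members below a linear signal of 100 and the number of arrays limit what can be detected.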
